A study of Mus musculus with 12 samples.

Results

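The genes described here make or sense leukotrienes and prostaglandins, the lipid mediators formed from arachidonic acid. The list was chosen by symbol and held 10 genes: Alox5, Alox5ap, Ltc4s, Cysltr1, Cysltr2, Ptgs1, Ptgs2, Ptges, Hpgds and Ptgdr2. Of these, 9 were measured among the 19937 genes of the arrays, each by 1 probe set, and Ptgs1 is not reported because no probe set named it alone. RNA of the whole lung came from 12 Balb/c mice, 3 in each of 4 groups, and was hybridised to 1 Affymetrix Gene 1.0 ST array a mouse. Control mice received only PBS into the nose. Eosinophilic mice were injected into the peritoneum on days 0, 7 and 21 with house dust mite extract (0.75 development units, DU, of each of the allergens Der f and Der p) on 1.5 mg of aluminium hydroxide. They were then challenged through the nose with a like dose on days 26 to 28. Mixed mice took 0.75 DU of each allergen by the nose alone, in 4 weekly applications, and neutrophilic mice took 7.5 DU of each on the same schedule. The injections and the aluminium hydroxide were given to the eosinophilic group alone, and control mice had no injected counterpart. Sex and age are not given in the labels, and each name of a group is the labels' name for the model.

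In this pathway, cytosolic phospholipases free arachidonic acid from membranes. 5-Lipoxygenase, helped by its activating protein, turns it into leukotriene A4, which is converted either to leukotriene B4, an attractant of neutrophils, or to the cysteinyl leukotrienes, which constrict airways and act through their own receptors. Cyclooxygenases instead turn it into prostaglandin H2, from which terminal synthases make prostaglandin E2, prostaglandin D2 and others. In the lung, mast cells are a known source of prostaglandin D2 and cysteinyl leukotrienes, and prostaglandin D2 attracts eosinophils and type 2 lymphocytes through the receptor encoded by Ptgdr2.

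The genes for the inducible steps of prostaglandin E2 synthesis, Ptgs2 and Ptges, had higher values on every mixed and every neutrophilic array than on any control array. Taken 1 group at a time, 9.16% of all genes were above all controls in mixed and 12.6% in neutrophilic lung. The group means differed from control by 1.79 and 1.19 log2 for Ptgs2 and by 2.38 and 2.18 log2 for Ptges. With all 12 arrays in the fit, 0 of the 9 measured members passed the threshold in any comparison. Without the array of eosinophilic mouse 7, which stood apart from the others, Ptgs2 and Ptges both passed in mixed and in neutrophilic lung. In that fit 2.99% of all genes passed in mixed and 9.47% in neutrophilic lung. The members of the leukotriene arm, the prostaglandin D2 synthase and the prostaglandin D2 receptor passed in no comparison of either fit.

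The deposited values were on a log2 scale. Differences between groups were tested with limma on all genes at once, and a gene was called where the p adjusted over all 19937 genes by the Benjamini-Hochberg method was under 0.05. Nothing in the labels tells how the mice were housed or whether they were processed together. These p-values therefore measure the spread between mice within the 4 groups and no more. The fits with and without mouse 7 each used 1 estimate of that spread shared by all groups. An array of 1 group thus also changes the p-values of comparisons between other groups. The array of eosinophilic mouse 7 had an SD over probe sets of 0.9955 log2 and a correlation of 0.3556 with the median of the other arrays. Eosinophilic mouse 9 and neutrophilic mouse 23 gave SDs of 1.522 and 1.514 and correlations of 0.8635 and 0.8684, and on the remaining 9 arrays the SD ran from 1.774 to 2.042 and the correlation from 0.9563 to 0.9797. Mouse 7 also had low values of lung markers: it lay below all other 11 arrays in 8 of 9 epithelial, 9 of 9 endothelial and 7 of 8 fibroblast and smooth muscle markers. Sftpc, which encodes surfactant protein C of alveolar epithelium, read 7.38 log2 on mouse 7 and 12.95 to 14.31 on the others. By rank within the array, mouse 7 was lower than the other 11 in 20 of these 26 markers, including 9 of 9 epithelial ones, yet some still ranked high on it: Sftpc stood at the 98.8 percentile, against 100 on the others after rounding, and Cdh5, an endothelial cadherin, at 99.2, inside the range of the others. Because of this array, comparisons were fitted both with and without it. All comparisons with control share the same 3 control arrays.

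Stretches of promoter are shown for Ptgs2 and Ptges, which had high values on the same arrays, and for Alox5 and Ltc4s, which were called in no comparison. Each runs from 100 bases before to 30 bases after the start annotated by RefSeq on GRCm38.p6, 5′ to 3′ on the strand of the gene, and capitals mark matches to the motifs searched. The windows lie at chr1:150099931-150100060 on the plus strand for Ptgs2, and on the minus strand at chr2:30903268-30903397 for Ptges, chr6:116461149-116461278 for Alox5 and chr11:50238503-50238632 for Ltc4s.
Ptgs2: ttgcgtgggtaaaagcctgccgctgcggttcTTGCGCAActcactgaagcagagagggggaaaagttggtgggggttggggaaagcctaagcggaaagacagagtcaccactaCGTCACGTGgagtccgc
Ptges: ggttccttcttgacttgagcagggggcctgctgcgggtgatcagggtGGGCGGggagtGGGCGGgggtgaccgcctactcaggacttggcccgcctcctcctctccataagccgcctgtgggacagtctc
Alox5: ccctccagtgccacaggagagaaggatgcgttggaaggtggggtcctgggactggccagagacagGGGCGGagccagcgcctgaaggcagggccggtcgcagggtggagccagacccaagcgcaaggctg
Ltc4s: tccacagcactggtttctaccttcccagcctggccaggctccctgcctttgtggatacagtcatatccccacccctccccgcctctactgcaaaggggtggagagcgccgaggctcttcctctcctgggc

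The windows were searched on both strands for the C/EBP palindrome TTGCGCAA, the cyclic AMP response element core CGTCA, the E-box CACGTG, the GC box GGGCGG, the CCAAT box CCAAT, the TATA box TATAAA and the NF-kappaB motif. Of the members, 8 of 10 had a window, and those of Alox5ap and Cysltr1 were not analysed here. Ptgs2 held the C/EBP palindrome at -69 to -62, counted from the start, a motif found in 0.0822% of all promoter windows of this length. Its CGTCA core (12.9% of windows) at 14 to 18 and its E-box (3.98%) at 17 to 22 overlap by shared letters. Ptges held a pair of GC boxes at -53 to -48 and -42 to -37, and Alox5 held 1 at -35 to -30, a motif present in 27.5% of windows. Within these windows Ptgs2 and Ptges thus shared none of the motifs searched. The span of the Ptges gene runs on to 30931020, on the 5′ side of its window, and that stretch was not searched. Ltc4s, Ptgs1 and Hpgds held none, Cysltr2 held a CCAAT box (21.7% of windows) and Ptgdr2 a GC box. These are matches of letters, not measured binding sites.

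Leukotriene synthesis was represented by Alox5, Alox5ap and Ltc4s. Alox5 encodes 5-lipoxygenase (chromosome 6, 116410071 to 116461178). Its log2 values were 6.94, 7.02 and 6.30 in control mice 1 to 3, and 5.35, 7.02 and 6.81 in eosinophilic mice 7 to 9. In mixed mice 15 to 17 they were 7.29, 6.84 and 6.97, and in neutrophilic mice 23 to 25 they were 6.77, 7.30 and 7.35. Every asthma group overlapped the controls, and mouse 7 had the lowest value of all. The neutrophilic mean of 7.14 ± 0.32 (SD, n = 3) was 0.38 log2 above the control mean of 6.76 ± 0.40 (adjusted p = 0.422 by limma without mouse 7, 95% interval -0.20 to 0.97).

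Alox5ap (chromosome 5, 149265004 to 149288153) encodes the membrane protein that presents arachidonic acid to 5-lipoxygenase. Its values were 8.10, 7.68 and 7.63 in the controls, 6.37, 9.0 and 7.60 in eosinophilic mice, 8.35, 8.01 and 8.61 in mixed mice and 7.51, 8.56 and 8.76 in neutrophilic mice. The highest reading was that of eosinophilic mouse 8 and the lowest that of mouse 7 of the same group, so the eosinophilic SD of 1.32 log2 was larger than any difference between group means. Without mouse 7 the differences from control were 0.50 (95% interval -0.44 to 1.43) in eosinophilic, 0.52 (-0.31 to 1.36) in mixed and 0.47 (-0.36 to 1.31) in neutrophilic lung, with limma adjusted p of 0.57, 0.756 and 0.484. Alox5ap was the only leukotriene member called against control under any alternative setting run: it passed in neutrophilic lung with the array SD as a covariate (0.93 log2, adjusted p = 0.0152) and without mice 7, 9 and 23 (0.86 log2, adjusted p = 0.0264).

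Ranks within each array separated Alox5ap from the controls where log2 values did not. It stood at the 81.6 to 85.8 percentile of all genes on the control arrays and at 86.9 to 94.1 on the 9 asthma arrays, mouse 7 included, so that these ranges did not overlap. Alox5 stood at 64.8 to 72.2 on the control arrays and at 73.7 to 80.5 on the 8 asthma arrays other than mouse 7. The arrays of narrow range differed between the scales. On neutrophilic mouse 23 (SD 1.514) and mouse 7 (SD 0.9955) Alox5ap read 7.51 and 6.37 log2, below every control, yet ranked at 89.1 and 86.9. Alox5 ranked highest, at 80.5 and 80.3, on eosinophilic mouse 9 and neutrophilic mouse 23, where its log2 values of 6.81 and 6.77 were inside the control range. The part of the array range in these ranks was not tested. Over all genes, 1.92% ranked higher on all 9 asthma arrays than on any control array, and 3.89% did so on the 8 arrays without mouse 7. On the log2 scale 1 of the 9 members, Ptgs2, was higher on all 8 of these arrays than on any control array, against 2.89% of all genes. By rank there were 4 such members: Alox5, Alox5ap, Ptgs2 and Ptges.

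Ltc4s (chromosome 11, 50236461 to 50238532), which encodes leukotriene C4 synthase, commits leukotriene A4 to the cysteinyl branch. It read 5.11, 5.13 and 5.07 in the controls, 4.69, 5.24 and 4.87 in eosinophilic, 5.05, 4.95 and 5.39 in mixed and 5.13, 5.49 and 5.48 in neutrophilic mice. The control values lay within 0.06 log2 of each other, and the asthma groups straddled them except for the neutrophilic group, whose lowest value equalled the highest control to 2 decimals. The neutrophilic difference of 0.26 log2 had an interval of -0.24 to 0.77 (limma adjusted p = 0.52 without mouse 7).

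The receptors for cysteinyl leukotrienes had values on both sides of control. Cysltr1 (chromosome X, 106576509 to 106603679), the receptor blocked by montelukast, read 6.39, 6.27 and 6.14 in the controls, 5.71, 6.67 and 5.87 in eosinophilic, 6.53, 5.70 and 6.07 in mixed and 5.97, 5.99 and 6.0 in neutrophilic mice. The 3 neutrophilic values all lay below the lowest control, by 0.28 log2 on average, which was within the error of the fit (95% interval -0.88 to 0.32, limma adjusted p = 0.558 without mouse 7). Such separation was no rarity in that comparison: 20.4% of all genes were lower on every neutrophilic array than on any control array.

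Cysltr2 (chromosome 14, 73025672 to 73049114), the second receptor, read 3.74, 3.79 and 3.67 in the controls, 4.95, 3.88 and 4.04 in eosinophilic, 4.38, 3.69 and 4.77 in mixed and 4.48, 4.60 and 4.05 in neutrophilic mice. All eosinophilic and all neutrophilic values were above the highest control, as were those of 11.1% and 12.6% of all genes. Mouse 7 had the highest Cysltr2 value of all. The neutrophilic difference was 0.64 log2 (95% interval 0.03 to 1.25, unadjusted p = 0.0419 and adjusted p = 0.196 by limma without mouse 7). These readings are dim: the mean over 12 arrays was 4.17 log2, and with Hpgds and Ptgdr2 it was 1 of 3 members with a mean below 5. In the controls it stood at the 7.48 to 16.9 percentile of all genes, and in mixed mice the percentile ran from 5.97 to 36.7.

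**Figure D1:**
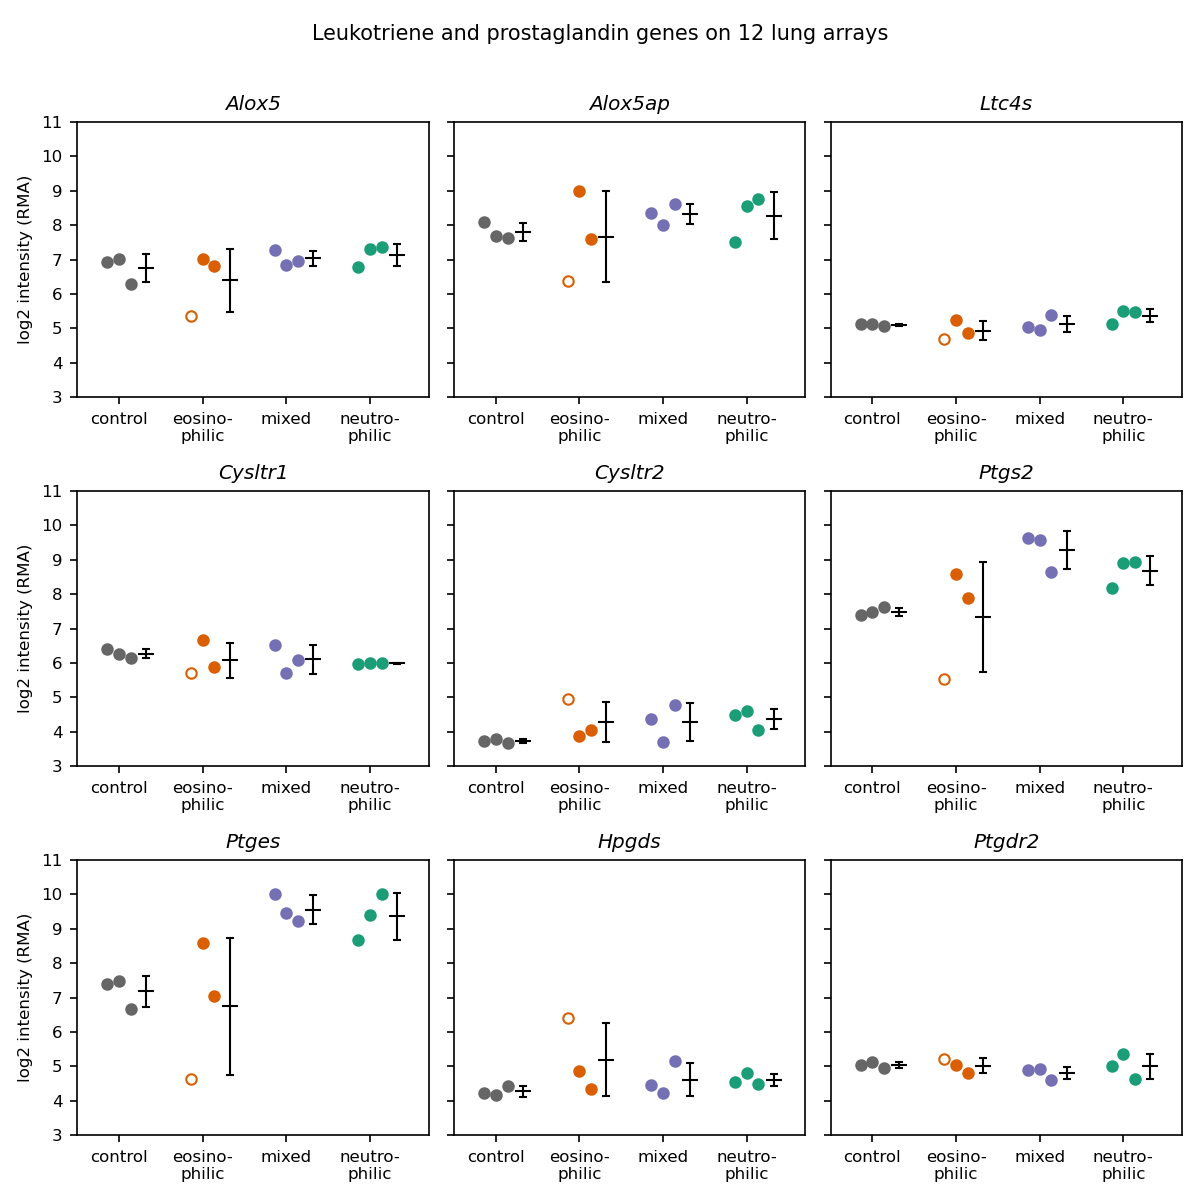
Each panel plots the log2 intensity (y axis) of 1 measured member on the 12 arrays by group (x axis), with points for mice and bars for the mean ± SD of 3 mice. The open circle is eosinophilic mouse 7. The mixed and neutrophilic points of Ptgs2 and Ptges all lie above the control points, whereas those of Alox5, Alox5ap and Ltc4s overlap them.

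Ptgs2 (chromosome 1, 150100031 to 150108234) encodes cyclooxygenase-2, the inducible enzyme that forms prostaglandin H2. It read 7.39, 7.47 and 7.62 in the controls and 5.54, 8.60 and 7.89 in eosinophilic mice. Mixed mice gave 9.64, 9.57 and 8.64, and neutrophilic mice 8.19, 8.92 and 8.93. The controls were tightly grouped and every mixed and neutrophilic value exceeded them, as did eosinophilic mice 8 and 9, while mouse 7 was the lowest of the 12. The mixed mean of 9.28 ± 0.56 (SD, n = 3) was 3.46 times the control level on the linear scale, and the neutrophilic mean of 8.68 ± 0.42 was 2.28 times that level.

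In the fit of all 12 arrays the Ptgs2 difference in mixed lung was 1.79 ± 0.61 log2 (SE) with an adjusted p of 0.334, and in neutrophilic lung it was 1.19 ± 0.61 with an adjusted p of 0.417, both by limma. Without mouse 7 the means were the same and the SE fell to 0.32, so that Ptgs2 rose in mixed (95% interval 1.10 to 2.49, adjusted p = 0.00861) and in neutrophilic lung (0.49 to 1.89, adjusted p = 0.0343). With a further array left out beside mouse 7, Ptgs2 was still called in mixed lung in 3 of 6 fits and in neutrophilic lung in 1 of 6. The highest adjusted p was 0.055 in mixed and 0.143 in neutrophilic lung. In mixed lung the call was lost without control mouse 1, control mouse 2 or mixed mouse 16, and in neutrophilic lung without any 1 of the 3 controls or without neutrophilic mouse 24 or 25. The eosinophilic difference was -0.15 log2 with mouse 7 (adjusted p = 0.868) and 0.76 without it (95% interval -0.02 to 1.53, adjusted p = 0.315).

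Ptges (chromosome 2, 30889471 to 30931020) encodes microsomal prostaglandin E synthase-1, the inducible terminal synthase that works downstream of cyclooxygenase-2. It read 7.40, 7.49 and 6.67 in the controls and 4.63, 8.58 and 7.04 in eosinophilic mice. Mixed mice gave 10.02, 9.45 and 9.22, and neutrophilic mice 8.67, 9.40 and 10.02. Every mixed and neutrophilic value was more than 1 log2 above the highest control. The eosinophilic mice were spread from the lowest value of the 12 in mouse 7 to one above all controls in mouse 8, with mouse 9 inside the control range.

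The mixed mean of Ptges, 9.56 ± 0.41 (SD, n = 3), was 5.20 times the control level and the neutrophilic mean, 9.36 ± 0.68, was 4.53 times. With all 12 arrays these differences were 2.38 ± 0.75 log2 (SE; unadjusted p = 0.00769, adjusted p = 0.259) and 2.18 ± 0.75 (unadjusted p = 0.0127, adjusted p = 0.169) by limma. Without mouse 7 the SE was 0.43, and Ptges rose in mixed (95% interval 1.46 to 3.30, adjusted p = 0.00842) and in neutrophilic lung (1.26 to 3.10, adjusted p = 0.00681). Ptges kept both calls in 6 of 6 fits that left out a further array, with adjusted p up to 0.0464 in mixed and 0.0322 in neutrophilic lung. The eosinophilic difference was -0.43 log2 with mouse 7 (adjusted p = 0.677) and 0.63 without it (95% interval -0.40 to 1.65, adjusted p = 0.511).

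**Figure D2:**
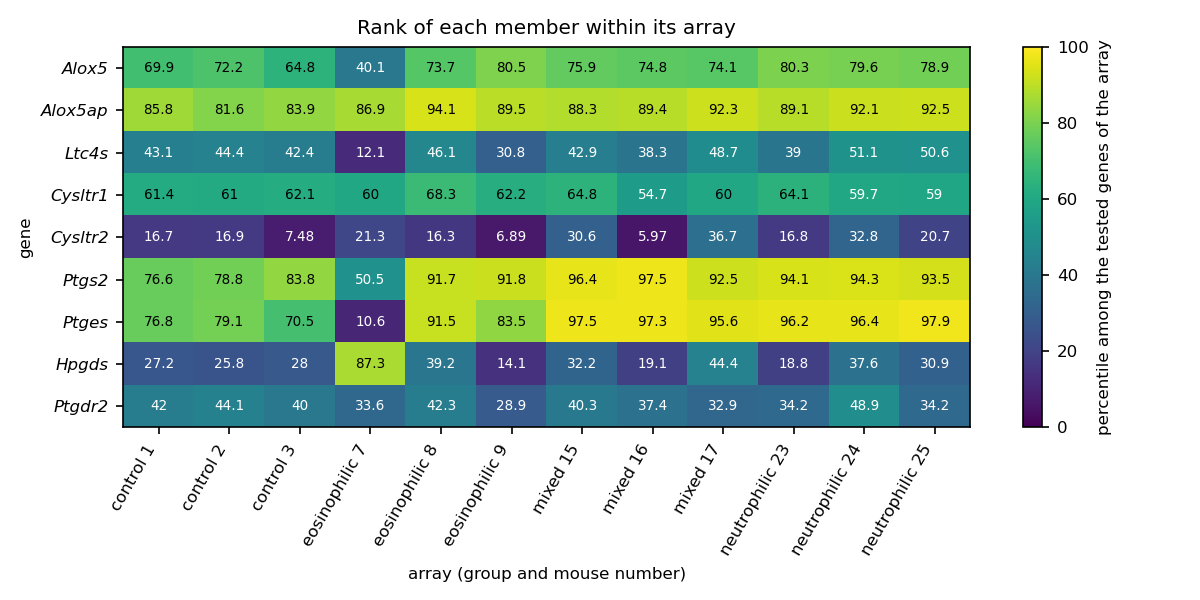
The map gives the percentile of each measured member (y axis) among all tested genes of each array (x axis, group and mouse number), with colour from 0 to 100. Ptges moves from 70.5 to 79.1 on the control arrays to 95.6 to 97.9 on the mixed and neutrophilic arrays, and reads 10.6 on eosinophilic mouse 7.

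Ranks of these prostaglandin E2 genes within each array were also higher in mixed and neutrophilic mice than in controls, and for Ptges they placed eosinophilic mouse 9 above the controls, where its log2 value was not. Ptges stood at the 70.5 to 79.1 percentile in controls, at 95.6 to 97.5 in mixed and at 96.2 to 97.9 in neutrophilic mice, and at 91.5 and 83.5 in eosinophilic mice 8 and 9. Ptgs2 stood at 76.6 to 83.8 in controls, at 92.5 to 97.5 in mixed, at 93.5 to 94.3 in neutrophilic mice and at 91.7 and 91.8 in eosinophilic mice 8 and 9. On mouse 7 the percentiles were 10.6 for Ptges and 50.5 for Ptgs2.

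The synthase and the receptor of prostaglandin D2 gave no call. Hpgds (chromosome 6, 65117293 to 65144981), hematopoietic prostaglandin D synthase, read 4.22, 4.15 and 4.44 in the controls, 6.39, 4.85 and 4.34 in eosinophilic, 4.46, 4.22 and 5.15 in mixed and 4.54, 4.80 and 4.47 in neutrophilic mice. The highest value belonged to mouse 7, where the gene stood at the 87.3 percentile of the array, against 14.1 to 44.4 on the other 11 arrays. The eosinophilic difference of 0.92 log2 (unadjusted p = 0.0594, adjusted p = 0.187 by limma) became 0.33 without that array (95% interval -0.34 to 1.0, adjusted p = 0.597). The neutrophilic values lay just above the highest control, by 0.33 log2 between means (limma adjusted p = 0.49 without mouse 7). In that comparison 12.6% of all genes were above all controls.

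Ptgdr2 (chromosome 19, 10924519 to 10942511), which encodes the prostaglandin D2 receptor also called CRTH2, read 5.04, 5.12 and 4.96 in the controls and 5.22, 5.03 and 4.81 in eosinophilic mice. It read 4.89, 4.91 and 4.61 in mixed and 5.0, 5.37 and 4.62 in neutrophilic mice. All mixed values lay below the lowest control, with a difference of -0.24 log2 whose interval ran from -0.77 to 0.30 (limma adjusted p = 0.905 without mouse 7). Such separation was found for 13.9% of all genes. The Ptgdr2 means of the 4 groups, 5.04, 5.02, 4.80 and 5.0, lay closer together than the neutrophilic mice did among themselves.

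**Figure D3:**
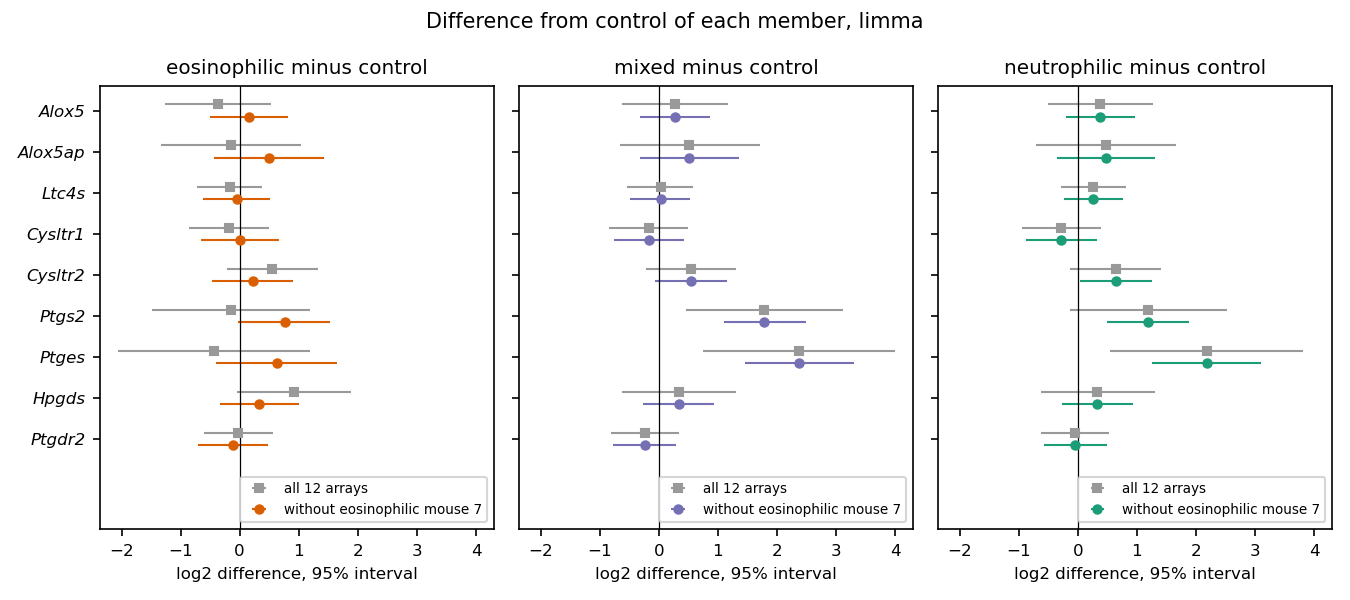
Each panel plots, for 1 asthma group, the log2 difference from control (x axis, with its 95% interval) of the 9 measured members (y axis). Grey squares are the fit of all 12 arrays and coloured circles the fit without eosinophilic mouse 7. Leaving out that array narrows the intervals for Ptgs2 and Ptges and moves the eosinophilic estimates of both from below to above 0.

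The counts of members can be read against all genes. With 12 arrays limma called 0 of 9 members in eosinophilic lung, where 0.497% of all genes were called, 0 of 9 in mixed (0.471%) and 0 of 9 in neutrophilic lung (2.11%). At an unadjusted p under 0.05 there were 0, 2 and 1 members, namely Ptges and Ptgs2 in mixed and Ptges in neutrophilic lung, while 28.2%, 7.95% and 14.7% of all genes had such a p. Without mouse 7 it called 0 of 9 in eosinophilic lung (1.33% of all genes), 2 of 9 in mixed (2.99%) and 2 of 9 in neutrophilic lung (9.47%). Both members were called higher, as were 1.41% of all genes in mixed and 2.24% in neutrophilic lung. The F test for any difference among the 4 groups called 0 of 9 members with 12 arrays (0.883% of all genes) and 2 of 9 without mouse 7 (4.6%), again Ptges (adjusted p = 0.0112) and Ptgs2 (adjusted p = 0.0238).

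Separation of the arrays, which needs no model, gave 1 member higher than all controls in eosinophilic lung, Cysltr2 (11.1% of all genes; without mouse 7 the members were 2, against 14.6% of all genes), 2 in mixed lung (9.16%) and 4 in neutrophilic lung (12.6%). The 4 were Ptgs2, Ptges, Cysltr2 and Hpgds. Lower than all controls were 0 members in eosinophilic lung (15.9% of all genes), Ptgdr2 in mixed (13.9%) and Cysltr1 in neutrophilic lung. The median log2 difference of the 9 members without mouse 7 was 0.22, 0.34 and 0.38 in eosinophilic, mixed and neutrophilic lung, and that of all genes was 0.01, 0.00 and 0.05. With mouse 7 the eosinophilic median of the members was -0.15.

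Between the asthma models no member was called, with or without mouse 7. Without it, the percentage of all genes called was 0.0502% for mixed against eosinophilic, 0.191% for neutrophilic against eosinophilic and 0% for neutrophilic against mixed lung. With 12 arrays these were 0.00502%, 0.115% and 0%. In neutrophilic against mixed lung, where limma called no gene, 1459 genes and 0 members had an unadjusted p under 0.05 without mouse 7, and 618 genes and 0 members with it. Without mouse 7, Ptges was 1.75 log2 higher in mixed than in eosinophilic lung (95% interval 0.72 to 2.78, unadjusted p = 0.00266, adjusted p = 0.422) and 1.55 higher in neutrophilic than in eosinophilic lung (0.53 to 2.58, unadjusted p = 0.00599, adjusted p = 0.404). With mouse 7 these differences were 2.81 (adjusted p = 0.295) and 2.61 (adjusted p = 0.343), so that array raised them on the linear scale from 3.37-fold to 7.02-fold and from 2.93-fold to 6.12-fold. Between the intranasal models Ptges differed by -0.20 (neutrophilic minus mixed, -1.12 to 0.72, adjusted p = 0.933).

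Ptgs2 was 1.04 log2 higher in mixed than in eosinophilic lung (95% interval 0.26 to 1.82, unadjusted p = 0.0128, adjusted p = 0.62 by limma without mouse 7), and 1.94 higher with mouse 7 (adjusted p = 0.295). Neutrophilic minus eosinophilic was 0.44 without mouse 7 (adjusted p = 0.847) and 1.34 with it (adjusted p = 0.486). Neutrophilic minus mixed was -0.60 (-1.30 to 0.10, adjusted p = 0.755). In both genes the order of group means over 11 arrays was mixed, neutrophilic, eosinophilic and control, and neighbours in that order did not differ past the threshold. Between the models, members were called in some other settings. Without eosinophilic mouse 8 (correlation 0.973 with the other arrays), mice 7 and 9 were left (0.3556 and 0.8635). In that setting limma called 3 members (Alox5ap, Ptges and Ptgs2) in mixed against eosinophilic lung and 2 (Ptges and Ptgs2) in neutrophilic against eosinophilic lung. Those fits called 30% and 13.9% of all genes. With mouse 8 kept and the array SD as a covariate, Ptges was called in neutrophilic against eosinophilic lung (0.552% of all genes).

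Other genes of the pathway were counted from a list of 65, of which 59 were measured. With 12 arrays limma called 0 of 59 in each comparison with control. Without mouse 7 it called 0 in eosinophilic lung, 2 lower in mixed lung, and 2 higher and 4 lower in neutrophilic lung. Of all genes, 1.57% were called lower in mixed lung, and 2.24% higher and 7.23% lower in neutrophilic lung, so the 4 of 59 lower were near the share of all genes. The largest of these differences was in Hpgd, which encodes 15-hydroxyprostaglandin dehydrogenase, the enzyme that starts the breakdown of prostaglandin E2. Hpgd read 11.63, 11.25 and 10.92 in the controls and 5.93, 10.37 and 9.15 in eosinophilic mice. It read 9.14, 9.38 and 9.95 in mixed and 8.33, 7.57 and 8.12 in neutrophilic mice.

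Every asthma array was below every control array in Hpgd, and the neutrophilic arrays were below all others but mouse 7. Separation of single groups was common: 15.9%, 13.9% and 20.4% of all genes were below all controls in eosinophilic, mixed and neutrophilic lung. The share of genes below all controls on all 9 asthma arrays at once is not given here. Of all genes, 9.37% were lower on every neutrophilic than on any mixed array. Without mouse 7 it fell by 3.26 ± 0.35 log2 (SE) in neutrophilic lung, a 9.57-fold lower level (adjusted p = 0.000182 by limma), and by 1.78 ± 0.35 in mixed lung (adjusted p = 0.0144). With all 12 arrays the adjusted p was 0.0609 and 0.62. The neutrophilic call held in 6 of 6 fits that left out a further array, with adjusted p up to 0.00215. The mixed call held in 2 of 6 and was lost without control mouse 1 or 2 or mixed mouse 15 or 16, with adjusted p up to 0.0964. In eosinophilic lung the difference without mouse 7 was -1.51 log2 (adjusted p = 0.0816). The neutrophilic-minus-mixed difference of -1.48 was not called (adjusted p = 0.42).

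**Figure D4:**
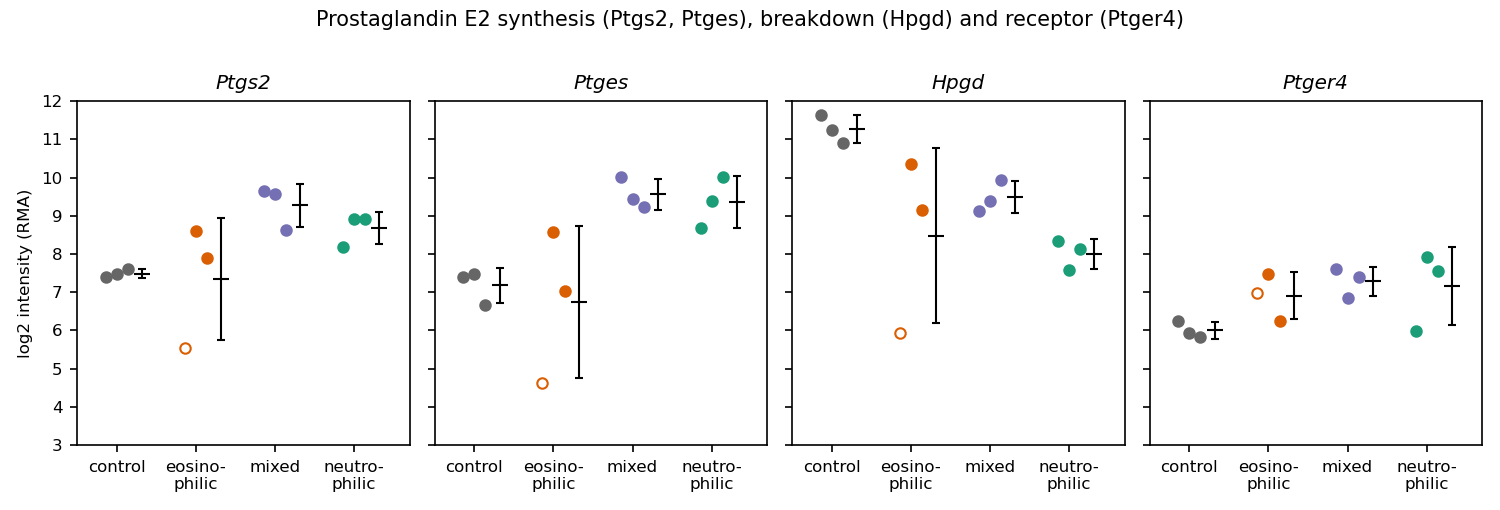
The panels plot log2 intensity (y axis) on the 12 arrays by group (x axis) for the synthesis genes Ptgs2 and Ptges, the breakdown gene Hpgd and the receptor gene Ptger4, with mean ± SD bars of 3 mice and an open circle for eosinophilic mouse 7. In mixed and neutrophilic mice Ptgs2 and Ptges lie above the control points and Hpgd lies below them.

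On the leukotriene side, Lta4h, which encodes the hydrolase that makes leukotriene B4, fell by 1.15 ± 0.27 log2 (SE) in neutrophilic lung (adjusted p = 0.0161 without mouse 7 and 0.055 with it, limma). Cyp4f18, a cytochrome that inactivates leukotriene B4 in mouse neutrophils, rose by 1.81 ± 0.43 there (adjusted p = 0.0178 and 0.0704). Cotl1, whose product binds 5-lipoxygenase and actin, rose by 1.39 ± 0.33 (adjusted p = 0.0182 and 0.156). With a further array left out beside mouse 7, the call of Lta4h held in 4 of 6 fits, that of Cotl1 in 2 and that of Cyp4f18 in 1. It was lost for all 3 genes without control mouse 1 or control mouse 2, for Cotl1 and Cyp4f18 also without neutrophilic mouse 24 or 25, and for Cyp4f18 without control mouse 3. The highest adjusted p was 0.0912 for Lta4h, 0.0855 for Cotl1 and 0.0663 for Cyp4f18.

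Ptgr2, which encodes a reductase of 15-keto prostaglandins, fell by 1.35 ± 0.29 log2 in neutrophilic lung (adjusted p = 0.0116 without and 0.0883 with mouse 7, limma). Its call was lost without control mouse 1 or 2 (adjusted p up to 0.073). Cmklr1, a receptor for chemerin and resolvin E1, fell by 1.24 ± 0.23 in mixed lung (adjusted p = 0.0107 without and 0.459 with mouse 7) and by 0.88 ± 0.23 in neutrophilic lung (adjusted p = 0.0309 and 0.46). It stayed called in 3 of 6 further fits in mixed lung, losing the call without control mouse 1 or 2 or mixed mouse 16 (adjusted p up to 0.0778). In neutrophilic lung it stayed called in 1 of 6, the fit without neutrophilic mouse 23 (adjusted p up to 0.153). The median difference of the 59 genes without mouse 7 was 0.02, 0.07 and 0.23 in eosinophilic, mixed and neutrophilic lung.

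Among the other receptors, phospholipases and synthases of the list, the genes with the largest differences were not called. Ptger4, which encodes the EP4 receptor of prostaglandin E2, read 6.25, 5.94 and 5.82 in the controls, 6.99, 7.47 and 6.25 in eosinophilic, 7.60, 6.86 and 7.40 in mixed and 5.99, 7.92 and 7.56 in neutrophilic mice. Mixed mice were all above the controls, and neutrophilic mouse 23 was inside the control range. The differences without mouse 7 were 1.28 log2 in mixed and 1.15 in neutrophilic lung (limma adjusted p = 0.181 and 0.134, or 0.391 and 0.26 with mouse 7). Pla2g7, the phospholipase that degrades platelet-activating factor, differed by 1.30, 1.22 and 0.96 in eosinophilic, mixed and neutrophilic lung (adjusted p = 0.143, 0.108 and 0.129 without mouse 7), and with mouse 7 the eosinophilic difference was 0.22. Alox15, which encodes 12/15-lipoxygenase, differed by 1.31 and 1.51 in eosinophilic and mixed lung (adjusted p = 0.222 and 0.101), and with mouse 7 the eosinophilic difference was 0.67. Tbxas1, thromboxane synthase, differed by 0.74, 0.43 and 0.63 (adjusted p = 0.313, 0.741 and 0.253), and by 0.71 in eosinophilic lung with mouse 7.

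Some pathway genes had their largest values of difference in eosinophilic lung. Pla2g1b, a secreted phospholipase A2, read 7.53, 7.67 and 8.17 in the controls and 5.96, 7.02 and 6.03 in eosinophilic mice, against 7.39 to 8.01 in mixed and 7.77 to 8.21 in neutrophilic mice. All 3 eosinophilic arrays lay below the other 9, mouse 8 being the nearest to them. Taken 1 group at a time, 15.9% of all genes were lower on every eosinophilic array than on any control array. The shares were 6.91% for mixed and 4.21% for neutrophilic arrays in place of controls. The difference from control was -1.45 log2 with 12 arrays (adjusted p = 0.066 by limma) and -1.27 without mouse 7 (adjusted p = 0.0936). Dpep1, a dipeptidase that turns leukotriene D4 into leukotriene E4, read 8.79, 8.60 and 8.40 in the controls and 5.18, 7.63 and 7.17 in eosinophilic mice, with 7.80 to 8.81 in mixed and 7.90 to 9.29 in neutrophilic mice. Here too the eosinophilic arrays were the lowest, with a difference of -1.94 (adjusted p = 0.102) that became -1.19 without mouse 7 (adjusted p = 0.165).

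The remaining genes with the largest difference of their sub-list were not called either. In eosinophilic lung with 12 arrays Alox8 differed by 1.26 log2 (limma adjusted p = 0.125) and the prostacyclin synthase gene Ptgis by -1.31 (adjusted p = 0.188), which without mouse 7 became 0.74 and -0.40. Ltb4r1, the receptor of leukotriene B4, differed by 0.68 (adjusted p = 0.165), or 0.40 without mouse 7. In neutrophilic lung Alox12e differed by 0.73 (adjusted p = 0.296 without mouse 7) and the leukotriene E4 receptor candidate Oxgr1 by 0.43 (adjusted p = 0.425). The eosinophilic counts of this list changed with the setting: 17 of 59 genes (28.8%) were called without mouse 8, when mice 7 and 9 made up the group, and 41.5% of all genes were called in that fit. With mouse 8 kept and the array SD as a covariate, 4 of 59 (6.78%) were called, against 1.7% of all genes.

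Whole lung mixes many cells, so fewer cells of a type and less RNA per cell cannot be told apart. Markers of some cell types also differed from control. Without mouse 7, 0.451%, 1.41% and 2.24% of all genes were called higher in eosinophilic, mixed and neutrophilic lung, and 0.883%, 1.57% and 7.23% lower. Without mouse 7, limma called 8 of 12 neutrophil markers higher in mixed lung, 9 of 12 in neutrophilic lung and 0 of 12 in eosinophilic lung. With 12 arrays the counts were 1, 5 and 0. Their summed linear intensity ran from 920 to 1352 in controls, 757 to 3405 in eosinophilic, 3841 to 5911 in mixed and 2981 to 6763 in neutrophilic mice. The 757 was mouse 7, and eosinophilic mice 8 and 9 gave 3405 and 1892, above every control. In eosinophilic lung without mouse 7, 8 of 12 neutrophil markers were above all controls, as were 14.6% of all genes. Of 8 measured markers of monocytes and recruited macrophages, 2 were called higher in eosinophilic, 2 in mixed and 3 in neutrophilic lung without mouse 7 (0, 1 and 1 with it). Their sums were 654 to 1023, 446 to 3081, 1994 to 3700 and 1297 to 4207 in the 4 groups. The 446 was mouse 7, and mice 8 and 9 gave 3081 and 2458. In the same order of asthma groups, 6, 7 and 6 of the 8 had a difference above 0 without mouse 7. Cx3cr1 differed by -0.85, -0.75 and -0.76 and Ccr2 by -0.23, 0.17 and -0.15, and neither was called. Of 9 markers of blood endothelium, 3, 4 and 5 were called lower in eosinophilic, mixed and neutrophilic lung without mouse 7 (2, 1 and 1 with it). Their sums were 9878 to 11262 in controls, 673 to 6710 in eosinophilic, 4173 to 6770 in mixed and 4029 to 5535 in neutrophilic mice. The 673 was mouse 7, and mice 8 and 9 gave 5755 and 6710, still below every control. In the same order without mouse 7, 2, 1 and 1 of 8 alveolar macrophage and 1, 1 and 1 of 7 dendritic cell markers were called higher. Of 9 epithelial markers 1, 0 and 1 were called lower, as were 1, 0 and 1 of 8 fibroblast and smooth muscle markers. Markers of T and B cells, platelets and tuft cells gave 0 calls. The part of these cell types in the values of Ptgs2, Ptges, Hpgd and the other called genes was not tested.

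Type 2 lymphocytes, mast cells and eosinophils are cells tied to Ltc4s, Hpgds or Ptgdr2. Of 7 measured markers of group 2 innate and T helper 2 lymphocytes, 1, Ccr8, was called, higher in neutrophilic lung. It differed by 2.09 log2 (limma adjusted p = 0.011 without mouse 7 and 0.0424 with it). Most markers of mast cells and eosinophils were dim in this tissue. Of 9 mast cell markers, 8 had a mean below log2 5, and 1, Kit, was called, lower in neutrophilic lung without mouse 7 (limma adjusted p = 0.0292, and 0.235 with it). Kit is shared with other cells and carried most of the sum, which was 822 to 896 in controls, 411 to 603 in eosinophilic, 424 to 744 in mixed and 444 to 573 in neutrophilic mice. Of 7 eosinophil markers, 4 had a mean below 5 and 0 were called in any comparison with control by limma, with sums of 223 to 234 in controls, 236 to 325 in eosinophilic, 268 to 300 in mixed and 243 to 349 in neutrophilic mice. Epx, the gene of eosinophil peroxidase, averaged 4.21 log2 in controls and 5.30 in eosinophilic mice (adjusted p = 0.0892 with 12 arrays and 0.15 without mouse 7). Eosinophil markers were thus not called in the lungs labelled eosinophilic, where the group held 2 or 3 arrays. Without mouse 7, 5 of 7 were above all controls there (14.6% of all genes) and 7 of 7 had a difference above 0. With 12 arrays 3 of 7 were above all controls (11.1% of all genes).

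Genes whose values most resembled those of a member were found over the 11 arrays without mouse 7, as the smallest mean absolute log2 difference after each gene was centred on its own mean. This was done for members whose group means spanned at least 1 log2, which were Ptgs2 (1.79) and Ptges (2.38). Genes with the names of predicted genes, clones, microRNAs or small nucleolar RNAs were left out. Nearest to Ptgs2 were Adamts9 (0.18 log2), a matrix metalloprotease, Myd88 (0.23), the adaptor of Toll-like receptors, and Mx1 (0.23), an interferon-induced GTPase. Nearest to Ptges were Spsb1 (0.17), a ubiquitin ligase adaptor, P2ry2 (0.20), a nucleotide receptor, and Sting1 (0.21), a sensor of cyclic dinucleotides. Ptgs2 and Ptges were not each other's nearest: they differed by 0.46 log2, which placed Ptges at rank 416 from Ptgs2 and Ptgs2 at rank 114 from Ptges. Both ranks are among the 19937 genes less those left out by name, so each gene was still near the top of the other's list. The measure counts a difference in the size of a change as well as in its pattern.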

How the data were processed

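Whole lungs were snap frozen and 300 ng of total RNA was labelled with biotin, per the labels' protocols. The authors deposited log2 intensities, 1 per probe set. The submitters' processing notes name RMA and Affymetrix Expression Console, with no version in the sources used here, and the log base was inferred from the range of the values. RMA corrects background, normalizes between arrays and summarises probes, so values compare 1 probe set across arrays and not different probe sets.

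Of 34760 probe sets, 21640 had a single gene symbol in the platform annotation, and Entrez IDs of 21553 matched the RefSeq table of GRCm38.p6. Each gene took its probe set of highest mean over the 12 arrays. Group means of the 4 groups were fitted with limma 3.58.1 in R 4.3.3 (lmFit, eBayes without trend), with no covariate because the labels give no batch. Tests were two-sided, with Benjamini-Hochberg adjustment over 19937 genes in each comparison. The script was tested on simulated data. Percentiles rank a gene among all genes of an array.

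All 10 members are named. Other pathway genes are named where called in the fit of 12 or of 11 arrays, and otherwise as the 1 gene of largest difference in its sub-list. Promoter windows came from a RefSeq table. The members, the lists, the marker genes and the fit without mouse 7 were chosen with earlier results of these data known. Alternatives were the mean of all probe sets, a filter on dim genes, median centring, quantile normalization, eBayes with trend, fits of only the groups compared, the array SD as a covariate, and fits without single arrays or without mice 7, 9 and 23. Leaving out mouse 7 together with quantile normalization, or with 1 further array, was chosen after seeing the data.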

Additional observations from a re-analysis of the deposited data

How the results depend on the processing

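The count of members called was 0 in all comparisons of the fit of 12 arrays without covariate, and it changed with some settings. Mixed against control gave 2 (Ptges and Ptgs2) in a fit of only the groups compared, with the array SD as a covariate, and with quantile normalization without mouse 7, where 8.47%, 5.25% and 3.76% of all genes were called. Neutrophilic against control gave 2, 3 and 2 in the same settings (10.7%, 10.9% and 10.5% of all genes), the third member being Alox5ap. The F test gave 3 with the SD covariate (6.98% of all genes) and 2 with quantile normalization without mouse 7 (6.54%), and neutrophilic against eosinophilic gave 1 (Ptges) with the SD covariate (0.552%). Leaving out arrays moved the count from 0 to 2 in mixed against control, 0 to 3 in neutrophilic against control, 0 to 3 in the F test, 0 to 3 in mixed against eosinophilic and 0 to 2 in neutrophilic against eosinophilic lung. The 3 and 2 of the last pair came without eosinophilic mouse 8. The cause was not tested. The counts for eosinophilic against control and neutrophilic against mixed were 0 in every setting run.

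Member differences reversed in 58 cases, 49 of them in eosinophilic against control, and in 0 of them was the gene called in either fit. For eosinophilic against control, the values with the SD covariate were 0.46 for Alox5, 1.09 for Alox5ap, 0.11 for Ltc4s, 0.26 for Cysltr1, 1.10 for Ptgs2 and 1.33 for Ptges. Quantile normalization gave 0.47 for Alox5ap and 0.02 for Ptgs2. With mouse 7 also left out it gave 0.48 for Alox5, 0.85 for Alox5ap, 0.14 for Cysltr1, -0.08 for Cysltr2, 1.12 for Ptgs2 and 0.96 for Ptges. Leaving out arrays gave ranges of -0.68 to 0.29 for Alox5, -0.82 to 1.20 for Alox5ap, -0.33 to 0.14 for Ltc4s, -0.48 to 0.40 for Cysltr1, -0.78 to 1.12 for Ptgs2, -1.35 to 1.40 for Ptges and -0.23 to 0.09 for Ptgdr2. In mixed against control Ltc4s read -0.02 with median centring, with quantile normalization and with quantile normalization without mouse 7, and leaving out arrays gave -0.10 to 0.12 for Ltc4s and -0.38 to 0.03 for Cysltr1. In neutrophilic against control Ptgdr2 ranged from -0.23 to 0.15.

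No paired analysis was possible because the groups share no replicate numbers. Cysltr2 and Hpgds were too dim for the filter (log2 of 5 on at least 3 arrays) and were not tested under it.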
